A study of Homo sapiens with 8 samples.

Results

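The 37 genes of the human mitochondrial genome were examined in MIAPaCa-2 cells after knockdown of METTL3. The members were taken as every gene that the annotation places on the mitochondrial chromosome, and all 37 were found by identifier among the 63568 genes of the count table. They comprise 2 ribosomal RNA (rRNA) genes, 13 protein-coding (mRNA) genes and 22 transfer RNA (tRNA) genes. MIAPaCa-2 is an established human pancreatic carcinoma line, and both conditions used this line. Control cells carried a control short hairpin RNA (shRNA), and METTL3-KD cells carried one directed at METTL3, the enzyme that places most N6-methyladenosine (m6A) on mRNA in the nucleus. For methylated RNA immunoprecipitation sequencing (MeRIP-seq), total RNA was broken into fragments, some was kept as input, and the rest was precipitated with an m6A antibody. Each condition had 1 m6A library and 1 input library, and each library appears as 2 samples that carry lane numbers, which gives 8 samples in all. Whether the cells were a pool or a single clone is not given in the sources used here.

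The mitochondrial genome is a small circle that is transcribed from both strands into long precursors. In the usual account the tRNAs lie between the larger genes and are cut out, which frees the rRNAs and mRNAs. The mRNAs encode subunits of respiratory chain complexes I, III and IV and of the ATP synthase (complex V), whereas every protein that transcribes, processes, modifies or translates these RNAs is encoded in the nucleus.

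With 1 library per condition, no difference between conditions has a replicate check, and no p-value was computed. Lanes of a library show sequencing error only. The input counts summed to 3237968 reads in the control and 1833005 reads in METTL3-KD, with 2730 and 10463 genes that had a read. The inputs differed in makeup. Reads of the control input fell on few distinct positions (310 reads per position, against 25.7 in the METTL3-KD input). The m6A libraries also had few positions, with 2242358 reads on 7920 in the control and 1252805 reads on 4508 in METTL3-KD. The METTL3-KD input had 52141 positions and the control input 9291. Counts per gene of the control input gathered around a lower mode of 504 reads, against 17.8 in METTL3-KD. This mode is used below as a step: a count divided by it gives steps, a rough scale for the number of sequenced starting fragments. The mode was the first density peak, per read, among genes with at least 10 reads, within a range set by hand for each input. Every value in steps depends on that choice. In steps the inputs held 6420 and 103000. METTL3 itself had 0 reads in both lanes of both inputs, so the labels could not be checked by the targeted gene; 3 reads would have been 0.927 CPM (counts scaled to library size) for the control and 1.64 CPM for METTL3-KD. Of the epithelial markers, KRT8 (10850 and 1167 reads) and KRT18 (3535 and 1212) were present in both inputs, and EPCAM and CDH1 had 0 reads in both. The mesenchymal marker VIM had 8978 and 5649 reads, and of 5 markers of other cell types (PTPRC, COL1A1, INS, PRSS1 and ALB) only ALB had a read, 1 in the control.

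Of the mitochondrial genes, 20 neighbouring pairs touch without a gap and 5 share bases. The sequences of 3 of the 5 are shown because a read that crosses such a junction cannot be given to a single gene. The other pairs that share bases are MT-ATP6 with MT-CO3 (1 base) and MT-TI with MT-TQ (3 bases, on opposite strands). They were read from the GENCODE release 44 transcripts, 5′ to 3′. MT-TY and MT-TC, the tRNA genes for tyrosine and cysteine, lie next to each other on the minus strand (GRCh37 chromosome M, 5826 to 5891 and 5761 to 5826). They share 1 base, given in capitals.
MT-TY: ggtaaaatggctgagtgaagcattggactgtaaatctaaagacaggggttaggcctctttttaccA
MT-TC: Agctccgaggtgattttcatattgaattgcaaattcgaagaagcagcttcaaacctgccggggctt
The 2 complex V genes MT-ATP8 (8366 to 8572, plus strand) and MT-ATP6 (8527 to 9207, plus strand) share 46 bases, in capitals here with their flanks, which open with the start codon of MT-ATP6.
MT-ATP8/MT-ATP6: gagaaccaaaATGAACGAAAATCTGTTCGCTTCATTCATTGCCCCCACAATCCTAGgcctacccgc
The complex I genes MT-ND4L (10470 to 10766, plus strand) and MT-ND4 (10760 to 12137, plus strand) share 7 bases, again in capitals.
MT-ND4L/MT-ND4: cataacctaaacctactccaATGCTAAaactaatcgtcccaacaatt
Each of the pairs shown is coded on 1 strand, so a strand-aware count would not separate them either.

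The mitochondrial genes took a somewhat smaller part of the METTL3-KD input than of the control input, and their makeup differed. The 37 genes held 282155 of the control reads, or 8.71% (95% Wilson interval 8.68 to 8.74%), and 128720 of the METTL3-KD reads, or 7.02% (6.99 to 7.06%), a ratio of 0.806. The rRNAs were lower in METTL3-KD as a share, at 8.29% in the control and 6.16% in METTL3-KD, a ratio of 0.743. The mRNAs were higher in METTL3-KD, at 0.76% (0.748 to 0.773%) against 0.362% (0.356 to 0.369%), a ratio of 2.1. The tRNAs had 0.0643% and 0.103%, a ratio of 1.6. These intervals cover counting error only and are too narrow, since copies of 1 molecule made by PCR are counted as separate reads. On steps instead of reads the intervals were wider. They were 7.63 to 8.98% and 6.01 to 6.31% for rRNA and 0.239 to 0.537% and 0.709 to 0.815% for mRNA, which did not overlap, and 0.0242 to 0.16% and 0.0851 to 0.124% for tRNA, which did. The control mRNA share rested on 23.3 steps and the control tRNA share on 4.13 steps, against 783 and 106 in METTL3-KD. The 4.13 steps lay on MT-TC and MT-TY, neighbours with near-equal counts, and may hold the same fragments more than once. In bulk samples fewer cells of a kind and less RNA per cell cannot be told apart.

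**Figure D1:**
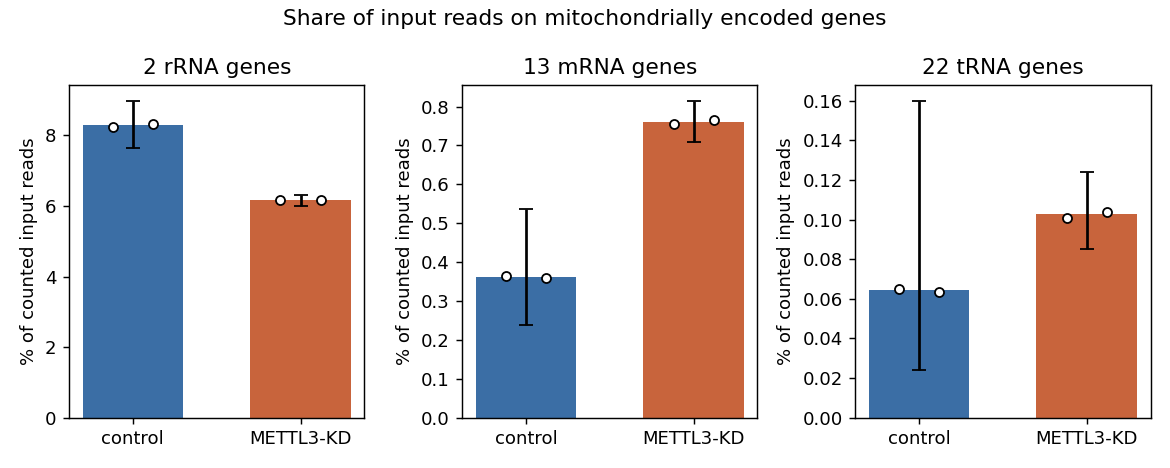
Share of counted input reads, in percent, on the rRNA, mRNA and tRNA genes of the mitochondrial genome. Bars are the summed library, open circles are its 2 lanes, and error bars are 95% Wilson intervals computed on steps. The rRNA bar is lower in METTL3-KD (6.16% against 8.29%), the mRNA bar is higher (0.76% against 0.362%), and the tRNA intervals overlap.

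MT-RNR1 and MT-RNR2, the small and large rRNAs of the mitochondrial ribosome, carried most of the mitochondrial reads. MT-RNR1 (648 to 1601, plus strand) had 28292 and 29182 control reads by lane and 14475 and 14849 METTL3-KD reads. MT-RNR2 (1671 to 3229, plus strand) had 104316 and 106548 control reads and 41378 and 42195 METTL3-KD reads. Raw reads of both were thus higher in every control lane, as was the library total. The log2 ratio of METTL3-KD over control, scaled by TMM (the trimmed mean of M values), was 1.22 (1.20 to 1.24, counting error only) for MT-RNR1 and 0.86 (0.85 to 0.87) for MT-RNR2. The direction depends on the scaling, since with total counts the ratios were -0.15 and -0.51. Within each input, where no scaling enters, MT-RNR2 had 2.25 times the reads per kb of MT-RNR1 in the control and 1.74 times in METTL3-KD, and rRNA reads were 22.9 times and 8.1 times the mRNA reads. The authors removed rRNA reads before alignment, and whether mitochondrial rRNA was among the removed sequences is not given in the sources used here, so the levels are those of the reads that remained.

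The control reads of the mRNA genes rested on 23.3 steps, so whether a gene had any depends on few fragments. In the control 8 of 13 had 7 reads or fewer, and 5 of these had 0, whereas in METTL3-KD every mRNA gene had reads in both lanes. Among genes with at least 10 reads over both inputs, 38.5% of the mRNAs and 74.3% of all genes had 0 control reads. A gene with no control read passes that filter only through METTL3-KD, so nothing is read from the difference.

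Complex I takes electrons from NADH, and 7 of its subunits are mitochondrially encoded. MT-ND1 had 3 and 4 control reads by lane and 292 and 302 in the METTL3-KD lanes. MT-ND2 had 274 and 289 reads against 222 and 226. MT-ND5 had 1057 and 1040 reads against 403 and 433. MT-ND1 was therefore nearly without reads in the control, whereas MT-ND2 and MT-ND5 had more raw reads there than in METTL3-KD. MT-ND3 had 0 reads in both control lanes and 88 and 102 in METTL3-KD. MT-ND4L had 0 and 2 reads against 137 and 151. MT-ND4 had 0 and 2 reads against 812 and 834, and this gene and its overlapping neighbour MT-ND4L had the same control counts. MT-ND6, the single mRNA gene on the minus strand, had 0 reads in both control lanes and 149 and 183 in METTL3-KD. By TMM the log2 ratios of the genes with control reads were 10.48 (10.02 to 14.92) for MT-ND4, 8.05 (7.55 to 9.92) for MT-ND1, 7.97 (7.50 to 12.42) for MT-ND4L, 1.86 (1.68 to 2.05) for MT-ND2 and 0.87 (0.75 to 0.98) for MT-ND5, and the last was -0.51 with total counts. The first 3 rest on 2, 7 and 2 control reads, far under 1 step. In steps, also scaled by TMM, their log2 ratios were 4.93, 3.52 and 2.62. The control side of these ratios is set almost wholly by the prior count, an amount added to every gene, so they reflect the METTL3-KD reads. MT-ND2 and MT-ND5 had 1.12 and 4.16 control steps, so their intervals, which count reads, are too narrow. With the control set to the floor of 3 reads per library, reads scaled by TMM were at least 506-fold higher in METTL3-KD for MT-ND6 and at least 290-fold higher for MT-ND3.

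Complex III passes electrons on to cytochrome c, and MT-CYB, which encodes cytochrome b, is its mitochondrial subunit. MT-CYB had 0 reads in both control lanes and 318 and 307 in METTL3-KD, at least 953-fold higher in reads scaled by TMM.

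Complex IV, cytochrome c oxidase, reduces oxygen, and its catalytic core is formed by MT-CO1, MT-CO2 and MT-CO3. MT-CO1 had 560 and 556 control reads by lane and 1977 and 1973 in METTL3-KD. MT-CO2 had 1425 and 1435 reads against 826 and 889. MT-CO3 had 2546 and 2543 reads against 1092 and 1126. Of the 3, MT-CO1 alone had more raw reads in METTL3-KD, and its log2 ratio was 4.01 (3.92 to 4.11) by TMM and 2.64 with total counts. MT-CO1 had 2.21 control steps, so this interval, which counts reads, is too narrow. In steps its log2 ratio was 4.35. MT-CO2 had 1.45 by TMM and 0.08 with total counts, and MT-CO3 had 0.99 and -0.38.

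Complex V makes ATP, and MT-ATP6 and MT-ATP8 encode parts of its membrane sector. Both had 0 reads in both control lanes. MT-ATP6 had 460 and 495 reads in the METTL3-KD lanes, at least 1456-fold higher, and MT-ATP8 had 62 and 79, at least 215-fold higher. All lower bounds given here hold for reads scaled by TMM only, and with total counts those of genes with 0 control reads would be smaller. The log2 ratio of MT-ATP6, for example, was 10.38 by TMM and 9.37 with total counts. The floor of 3 reads lies far under the step of 504 reads in the control, and the bounds therefore do not limit a change in expression.

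**Figure D2:**
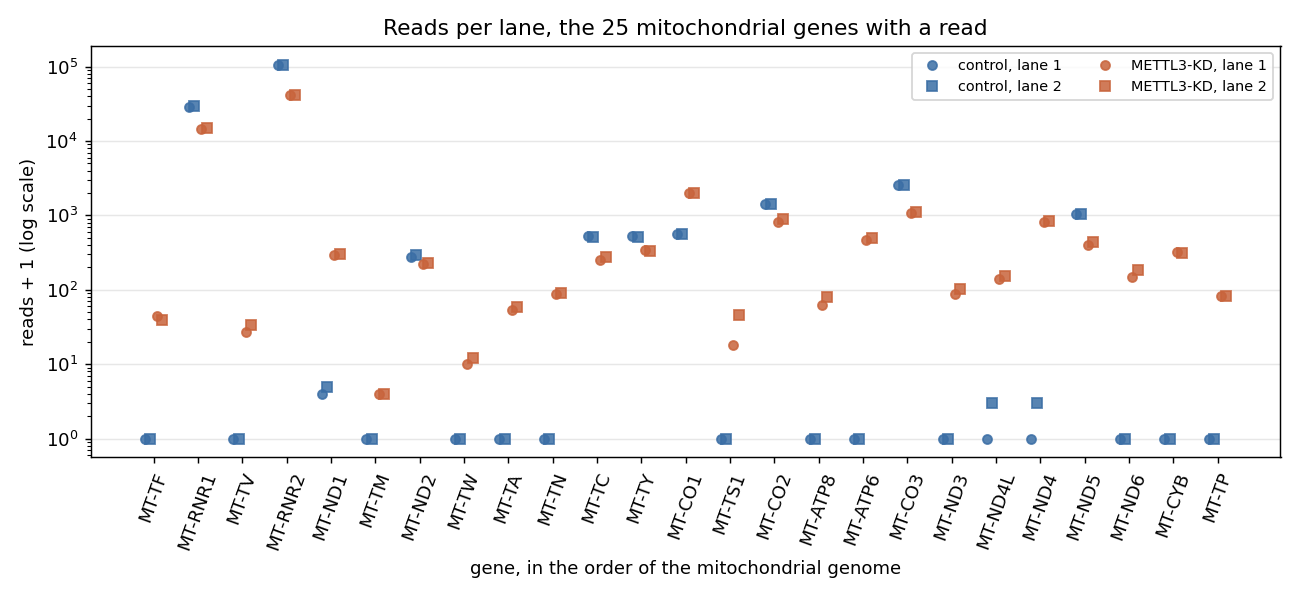
Reads plus 1 on a log scale in each input lane for the 25 mitochondrial genes with a read, in genome order, so that a value of 1 is no read. The lanes of a library lie close together, 13 genes have METTL3-KD reads but none in the control, and MT-TS1 is the gene whose METTL3-KD lanes stand furthest apart (17 and 45 reads).

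Within each input the reads per kb of gene gave an order of the mRNAs. In METTL3-KD the complex IV genes stood first, with MT-CO3 at 2829, MT-CO1 at 2562 and MT-CO2 at 2507 reads per kb, followed by MT-ATP6 at 1402 and MT-ND4 at 1194. MT-ND5 (461) and MT-ND2 (430) stood last, 6.58-fold below the first. By exact Poisson intervals on steps, MT-CO2 and MT-ATP6 were the single neighbouring pair of 12 whose intervals did not overlap, and 11 pairs could not be ordered. In the control MT-CO3 at 6491 and MT-CO2 at 4181 reads per kb came first, then MT-ND5 at 1157, MT-CO1 at 724 and MT-ND2 at 540, and the intervals of all 12 neighbouring pairs overlapped. The Spearman correlation of reads per kb between the inputs was 0.311 over the 13 genes, which share their library within each input.

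By complex, the makeup of the mRNA reads could not be separated between the inputs on steps. Complex IV genes held 77.2% of mRNA reads in the control and 56.6% in METTL3-KD, and complex I genes held 22.8% and 31.1%. Complexes III and V held 4.48% and 7.86% in METTL3-KD and 0 reads in the control. The 95% Wilson intervals on steps, of which the control mRNAs had 23 and those of METTL3-KD 783, were 58.1 to 90.3% and 53.1 to 60% for complex IV and 9.66 to 41.9% and 27.9 to 34.4% for complex I. For complexes III and V the control interval was 0 to 14.3%, beside 3.23 to 6.15% and 6.23 to 10% in METTL3-KD, so the intervals overlapped for every complex. The 4 highest genes held 95.1% in the control (MT-CO3, MT-CO2, MT-ND5 and MT-CO1) and 68.4% in METTL3-KD (MT-CO1, MT-CO3, MT-CO2 and MT-ND4).

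**Figure D3:**
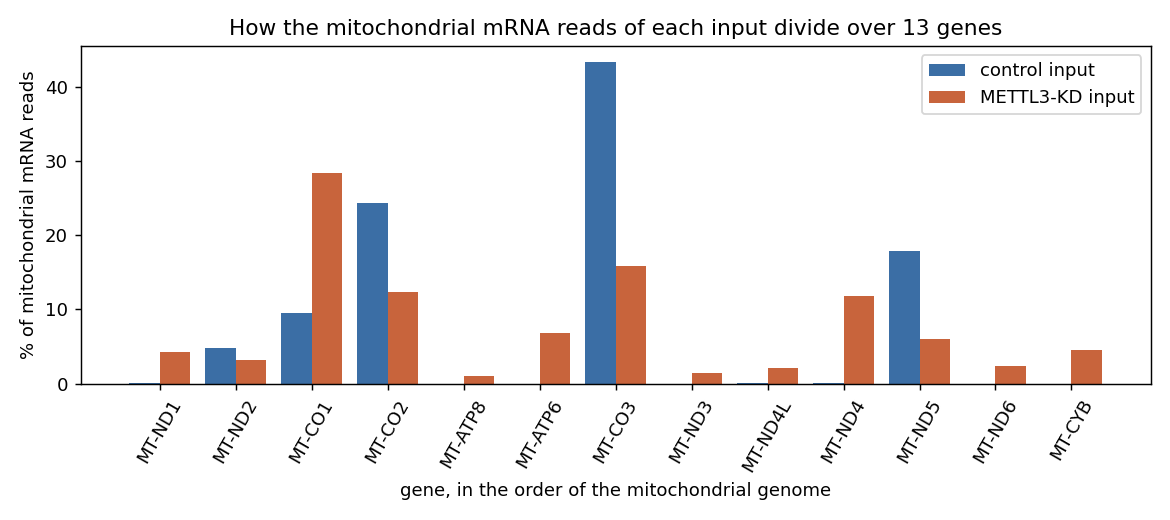
Percent of the mitochondrial mRNA reads of each input that fell on each of the 13 mRNA genes, in genome order. The control bars stand on 5 genes, with a trace on 3 more, and the METTL3-KD bars stand on all 13, with MT-CO1 highest.

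The tRNA genes, 59 to 75 bases long, were shorter than the fragments, which the protocol set at about 100 bases, and 12 of 22 had 0 reads in both inputs. In the control 2 had reads. MT-TC had 522 and 519 control reads by lane and 251 and 279 in METTL3-KD, and MT-TY had 521 and 519 against 346 and 330. The control counts of these abutting genes, whose sequences stand above, thus differed by 1 read in all. Their log2 ratios were 1.22 and 1.57 by TMM and -0.15 and 0.20 with total counts. In METTL3-KD 8 further tRNA genes had reads. The highest were MT-TN (asparagine) with 88 and 90 reads, MT-TP (proline) with 81 and 81, MT-TA (alanine) with 53 and 57 and MT-TF (phenylalanine) with 44 and 38. MT-TV (valine) had 26 and 33, MT-TS1 (serine) had 17 and 45, and MT-TW (tryptophan) had 9 and 11. MT-TM (methionine), with 3 and 3, was under the filter of 10 reads. By the floor of 3 reads the ratios of these 8 ran from at least 9.15-fold higher (MT-TM) to at least 271-fold higher (MT-TN). These bounds, too, hold for reads scaled by TMM only. MT-TS1 was the exception to the closeness of the lanes. The share of reads in lane 2 over lane 1 was 2.59 for this gene, against 0.845 to 1.25 for the other mitochondrial genes with at least 50 reads in METTL3-KD and 0.972 to 1.04 in the control.

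Reads on tRNA genes lay mostly on those coded on the minus strand. Of 8 minus-strand tRNA genes, 2 had a read in the control and 6 in METTL3-KD, and of 14 plus-strand genes, 0 and 4. Minus-strand genes held 100% of control tRNA reads and 91.1% (89.8 to 92.3%) of METTL3-KD tRNA reads, with 1718 reads against 167 on plus-strand genes. The control value rests on 4 steps, for which the interval is 51 to 100%, beside 84.6 to 95.5% on the steps of METTL3-KD. These 4 steps come from MT-TC and MT-TY alone, which in METTL3-KD had 530 and 676 of the 1718 minus-strand tRNA reads. Whether both genes counted the same fragments was not tested. If they did, the intervals of both inputs are too narrow. Of all mitochondrial reads other than rRNA, minus-strand genes held 15.1% and 13%. Whether counting used the strand is not given in the sources used here, and a count that ignores it would include RNA of the opposite strand.

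The mitochondrial genes were next set beside the whole table. Of 37 members, 24 had at least 10 reads over both inputs, and 16 of these (66.7%) had a log2 ratio above 2, while 0 lay below -2. Over all 9931 genes tested, 79.1% lay above 2 and 7.37% below -2. Of those tested, 12 of 24 members and 74.3% of all genes had 0 control reads, and a gene with no control read passes the filter only through METTL3-KD, which fixes its call, so nothing is read from the difference between these shares. The 16 were 9 of 13 mRNAs, 7 of 9 tested tRNAs and 0 of 2 rRNAs. The median log2 ratio was 6.65 over the members and 5.60 over all genes, and with genes at 0 set to their bound it was 6.76 and 5.70. Among the 9 members with at least 10 reads in both inputs the median was 1.22, beside -0.61 for the 1871 genes that met the same filter. All 9 lay above the median of those 1871 genes under TMM, total counts, DESeq2 size factors and the step scaling, but under total counts only 4 of 9 lay above 0. These scalings moved the median of the 1871 genes by -1.36 (total counts), 0.29 (DESeq2) and 0.74 (steps) from TMM. Of the 9, 1 (MT-CO1, 11.1%) was above 2 by TMM and 0 were below -2, beside 7.8% above and 21.3% below among the 1871 genes. To pass this filter a gene needs control reads, and with a control step of 504 reads this favours genes with high control counts. A change of scaling moves the members and the other genes together, so the scalings are not separate checks. Nothing is therefore read from the difference between the members and the 1871 genes.

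**Figure D4:**
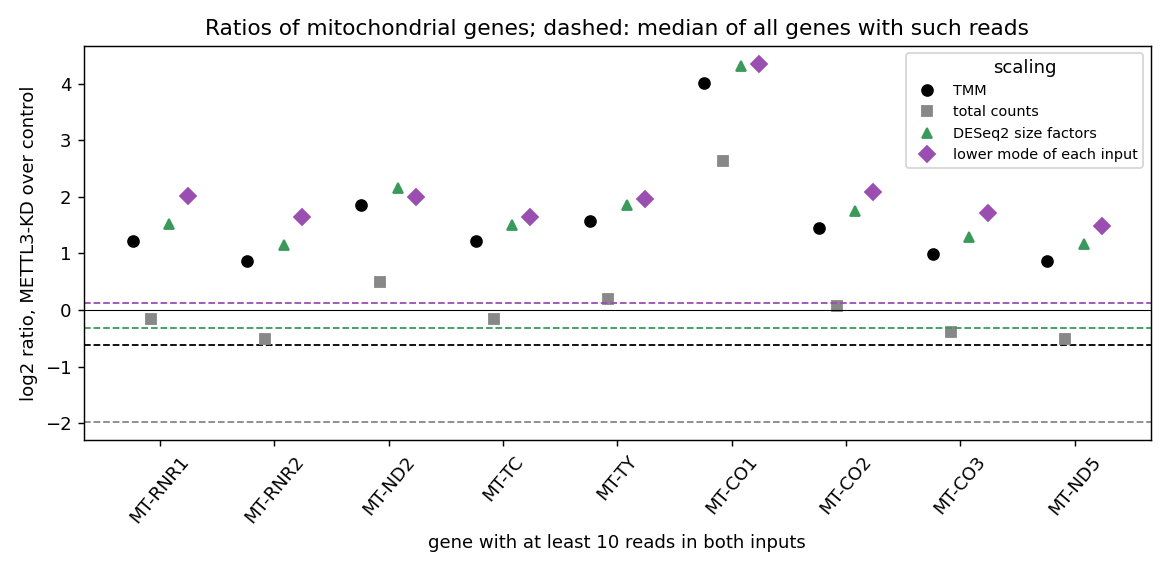
Log2 ratio of METTL3-KD over control for the 9 mitochondrial genes with at least 10 reads in both inputs, under 4 scalings, with a dashed line of the same colour at the median of all 1871 such genes. Each point lies above its own dashed line, and with total counts 5 of the 9 points lie below 0. The filter on control reads bears on the dashed lines, and nothing is read from their distance to the points.

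Nuclear genes that serve mitochondrial RNA were counted from a list of 154, of which 152 were in the table and 115 were tested. Of these, 96 lay above 2, and 92 of the 96 had 0 control reads. At 83.5% this was close to the 79.1% of all genes, and 11 (9.57%) lay below -2. By role, 21 of 26 tested genes of the small mitoribosomal subunit, 30 of 38 of the large subunit, 9 of 10 of RNA processing and 11 of 12 of RNA modification lay above 2. In the same order, 20, 28, 9 and 11 of these had 0 control reads. Their call is fixed by the filter, so nothing is read from the counts by role. TUFM, the mitochondrial elongation factor Tu, had 0 control reads and 181 and 159 in METTL3-KD, at least 518-fold higher. TFAM, which packages mitochondrial DNA and activates its transcription, had 0 control reads and 96 and 109, at least 313-fold higher. PTCD3, MRPS30, MRPS16 and MRPS2, proteins of the small subunit, had 0 control reads and 160 to 210 reads in METTL3-KD. In METTL3-KD TUFM had 19.1 steps and TFAM 11.5, out of 103000 in that input, and the control input held 6420. The bounds in this paragraph hold for reads scaled by TMM only and do not limit a change in expression. The genes below -2 with most reads included MRPS34 (1031 and 1084 against 9 and 4 reads, log2 ratio -5.08) and MRPS11 (544 and 591 against 5 and 11, -3.90) of the small subunit. MRPL9 (-2.43), MRPL11 (-2.10) and MRPL15 (1093 reads against 0, at least 79.7-fold lower) belong to the large subunit, and CDK5RAP1 (-2.62) modifies mitochondrial tRNAs. These 6 had between 1.98 and 4.2 steps in the control. LRPPRC, which stabilises mitochondrial mRNAs, had 546 and 570 reads against 69 and 72 and a log2 ratio of -0.79. DAP3 (-0.59), MRPS10 (-0.91) and MRPL19 (-1.94) were also within the threshold by TMM. With total counts LRPPRC (-2.15), MRPS10 (-2.27) and MRPL19 (-3.30) lay below -2, DAP3 was at -1.96, and 16 rather than 11 list genes lay below. Among the 16 list genes with at least 10 reads in both inputs the median was -1.88, with 1 (6.25%) above 2 and 7 (43.8%) below -2, beside a median of -0.61, 7.8% above and 21.3% below among the 1871 genes. This filter favours genes with high control counts, most of all where a gene has few fragments, so nothing is read from this comparison. In steps 4 list genes lay above 2 and 1 lay below -2.

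The nuclear genome holds copies of mitochondrial DNA that can take reads from the members. Of 394 such copies in the table, 11 had a read, 3 of them in the control. The copies held 0.0548% of control reads and 0.209% of METTL3-KD reads, a ratio of 3.82. MTND2P28 (GRCh37 chromosome 1, 565020 to 566063) had 274 and 288 control reads by lane, beside 274 and 289 for MT-ND2, and 114 and 111 beside 222 and 226 in METTL3-KD. The control counts of the gene and its copy therefore differed by 1 read in all. The aligned sequences were 98.4% identical, and 333 of the 968 windows of 75 bases (the read length in the peak file headers) in MT-ND2 occur unchanged in the copy. The first bases of MT-ND2 show such a stretch, the longest at 266 bases, in which a read could come from either.
MT-ND2 identical stretch: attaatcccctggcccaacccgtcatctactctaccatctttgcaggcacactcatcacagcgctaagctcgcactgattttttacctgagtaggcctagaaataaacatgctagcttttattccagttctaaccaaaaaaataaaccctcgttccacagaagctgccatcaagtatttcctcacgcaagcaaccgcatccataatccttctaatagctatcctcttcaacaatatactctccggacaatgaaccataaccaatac
A window of 60 bases from position 430 of MT-ND2 shows where they part, with the 4 differing bases in capitals.
MT-ND2: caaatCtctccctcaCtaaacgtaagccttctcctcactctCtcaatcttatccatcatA
MTND2P28: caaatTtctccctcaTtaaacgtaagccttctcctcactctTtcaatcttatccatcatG
MTCO1P12 (chromosome 1, 566454 to 567996) had 0 control reads and 1058 and 1041 in METTL3-KD, 53.1% of the reads of MT-CO1, with which it was 98.7% identical. MTCO2P12 had 593 and 614 control reads and 221 and 222 in METTL3-KD. MTCO3P12 had 4 reads in the control and 309 in METTL3-KD. MTATP6P1 (306), MTND1P23 (167), MTND4P12 (139) and MTRNR2L1 (88) had reads in METTL3-KD only, and the other copies had at most 41. How reads with several alignments were counted is not given in the sources used here, so reads within identical stretches cannot be placed, and the sum of a gene and its copy may count a read again. Outside such stretches a read can be assigned, and no window of 75 bases was shared by MT-ND4 and MTND4P12 or by MT-RNR2 and MTRNR2L1. With the copies added, the mitochondrial share was 8.77% in the control and 7.23% in METTL3-KD.

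In the m6A peak lists, mitochondrial peaks were few and lay on rRNA positions. At q under 0.01 the control list held 1 mitochondrial peak of 2298, or 0.0435% (0.00768 to 0.246%), and the METTL3-KD list held 3 of 830, or 0.361% (0.123 to 1.06%). These intervals overlap. No mitochondrial peak was at an mRNA position. The authors used hg19 from UCSC, whose mitochondrial sequence may differ from that of the annotation, and whether the numbering is the same was not tested. On the numbering of GENCODE, the control peak and 2 METTL3-KD peaks fell within MT-RNR2 and 1 METTL3-KD peak within MT-RNR1. The distance from a peak to the nearer end of its gene ranged from 20 to 398 bases.

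The control peak spanned 2069 to 2168 of the hg19 mitochondrial chromosome, with a pileup of 51 fragments at its summit, a fold enrichment of 3.12 and a −log10 q of 7.44. It lay wholly inside the METTL3-KD peak at 1809 to 2592, which had a pileup of 40, a fold of 6.53 and a −log10 q of 16.2, and the summits were 183 bases apart. The METTL3-KD peak at 2719 to 3209 had a pileup of 35, a fold of 6.64 and a −log10 q of 14.4, and that at 1165 to 1315 had a pileup of 19, a fold of 4.4 and a −log10 q of 3.9. The peaks covered 100 bases in the control and 1426 bases in METTL3-KD. With 784 and 491 bases, the peaks at 1809 and 2719 were the longest and the next longest of the METTL3-KD list. Peak calls kept at most 1 read per position, and distinct positions differed between the libraries (7920 in the control m6A library and 4508 in METTL3-KD m6A), so pileup and fold were not compared between lists.

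Within each list the mitochondrial peaks had much input signal beneath them. The local background, worked out from pileup and fold, was 15.7 fragments at the control peak and 3.54, 5.27 and 4.42 at the METTL3-KD peaks in order of position, whereas the median of the lists was 0.0003 and 0.00017. The control peak ranked 6 by pileup and 388 by fold among 2298. By fold the METTL3-KD peaks ranked 110, 33 and 32 among 830. On the nuclear copies there was 1 peak, in the control list, in MTRNR2L1 (hg19 chromosome 17, 22023715 to 22023825), with a pileup of 2 and a fold of 3. MTRNR2L1 had 0 reads in the control input.

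**Figure D5:**
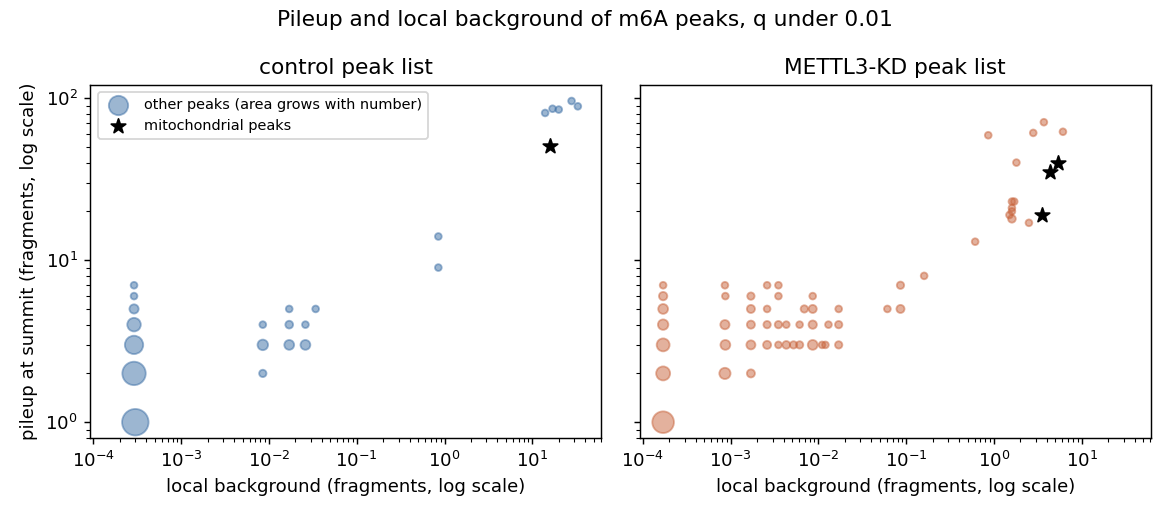
Pileup at the summit against local background, both in fragments on log scales, for peaks with q under 0.01 in each list, with mitochondrial peaks as stars. The stars lie at the upper right of both panels, at backgrounds of 3.54 to 15.7, and most other peaks lie at backgrounds near 0.0003 or 0.00017.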

How the data were processed

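The authors removed rRNA reads with Bowtie2, aligned to hg19 with HISAT2 and counted reads with featureCounts. The deposited table holds raw counts of reads per gene in each lane of the 2 inputs. Its column names differ by a character from the sample titles and were matched by cell code, library type and lane. For the peaks the authors ran MACS2 2.1.1 (fragment size 100, lanes pooled). Their pileup is a signal, their enrichment a ratio with a pseudocount (fold), and their deposited −log10 column a q value. File headers give a q of 0.05 and the methods 0.01, which was used. Per-gene m6A counts were not used here.

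Lanes were summed to 1 library per condition, as lane numbers name sequencer lanes. Ratios were log2 of counts scaled to library size, with TMM factors over the whole table (edgeR 4.0.16), a prior count of 2, and genes with at least 10 reads over both inputs. Genes beyond 2 were counted, after the study's size threshold. Intervals of ratios are exact (Clopper-Pearson, 95%) and those of shares are Wilson. The ratio step was tested on simulated data. Positions and sequences come from GENCODE release 44 on GRCh37. Identical windows were counted at 75 bases. Named were all members with reads (tRNAs from 10 reads, and MT-TM to complete the count), the 8 copies with most reads, and from the pathway list up to 6 genes beyond the threshold in each direction and 4 within it by reads. MTCO3P12 and the other copies were matched by symbol. The pathway genes MRM1 and MRPL45 and the marker PECAM1 were not matched. KRT19 had 1 and 201 reads and KRT7 had 1 and 0. Members and lists were chosen with earlier results of these data known. Alternatives were other scalings (DESeq2 1.42.0 size factors, total counts, the lower mode), prior counts, read filters, single lanes and lanes as replicates.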

Additional observations from a re-analysis of the deposited data

How the results depend on the processing

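The number of members above a log2 ratio of 2 (16) stayed within 1.5 times, and no result changed sign past its threshold, under any alternative run. Ratios that lay within the threshold did change sign with total counts, namely those of both rRNA genes, MT-CO3, MT-ND5 and MT-TC. By steps, 9 of the 16 remained above 2, although for members with few or no control reads the prior count sets the control side of that ratio. The median member ratio of 6.65 was 5.65 with total counts, 5.64 with totals that left out the members, 6.89 with DESeq2 size factors, 8.44 and 4.38 with prior counts of 0.5 and 10, 6.45 without a read filter, 6.85 with a minimum of 50 reads and 1.98 in steps. Leaving out either lane of each input gave 6.03 to 6.11. With lanes as replicates it was 5.84, with or without the lane as a replicate block, and the lane deviations correlated at -0.0138 over 1871 genes, so the lanes share only a number. Class medians with total counts and DESeq2 were -0.33 and 1.33 for rRNA (1.04 by TMM), 6.78 and 8.23 for mRNA (7.97) and 5.46 and 6.69 for tRNA (6.45). Of the pathway list, 47 rather than 96 genes lay above 2 at a minimum of 50 reads, and 4 above and 1 rather than 11 below in steps. Member shares by single lanes were 8.67 to 8.76% in the control, and with nuclear copies the shares were 8.77% and 7.23%. With the mitochondrial rRNAs left out of both members and total, they were 0.465% in the control and 0.92% in METTL3-KD. At a fold of at least 4, 0 of 88 control peaks were mitochondrial (0 to 4.18%), and 3 of 110 in METTL3-KD (0.932 to 7.71%), intervals that overlap. Intervals on steps were chosen after seeing the data. The control input's few steps limit every value from it.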
